A study of Mus musculus with 22 samples.

Results

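Whether the S64F change in MAFA altered islet RNA to the same extent on 2 genetic backgrounds was examined over all 22 libraries of the series, each made from the isolated islets of 1 male mouse aged 5.5 weeks. On the background labelled C57 there were 5 mice with the genotype MafA WT and 6 with MafA S64F (Het). On the background labelled Mixed there were again 5 MafA WT and 6 MafA S64F (Het) mice. The labels name no other allele and no treatment in any group, and they do not give the strains that make up Mixed. Of 57010 genes in the deposited table, 16756 had at least 1 TPM in at least 5 libraries and were tested. TPM is a transcript abundance scaled to the same total in every library.

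For each gene the interaction was the Het minus WT difference in Mixed minus the Het minus WT difference in C57, on the log2(TPM + 1) scale. A positive interaction means that Het stood higher relative to WT in Mixed than in C57, and a negative one that it stood lower. A gene was called when its Benjamini-Hochberg adjusted p in limma's linear model was under 0.05. The error given with each interaction is its standard error (SE) in that model. A gene named below as called also passed in each of the 22 fits that left out 1 library, unless a smaller number is given with it.

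MAFA is a transcription factor of mature beta cells, the insulin-producing cells of the islet. It activates the insulin genes and genes for glucose uptake, secretion and hormone signalling, and its level rises as beta cells mature after birth. Serine 64 lies in a part of the protein whose phosphorylation controls how fast MAFA is degraded. In people the S64F change is known from families in which some carriers develop diabetes and others insulin-producing tumours. Bulk islet RNA mixes beta cells with alpha, delta and non-endocrine cells, so fewer cells of a type and less RNA per cell cannot be told apart in any value below.

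Mafa itself fell on both backgrounds. It was 362, 571, 375, 409 and 487 TPM in the 5 C57 WT mice and 93.8 to 152 TPM (median 108) in C57 Het. In Mixed WT it was 775, 534, 520, 440 and 720 TPM, and in Mixed Het 95.2 to 199 TPM (median 160). Every Het mouse lay below every WT mouse of its background. Mafa fell by 1.91 in C57 and by 1.98 in Mixed, and the interaction was -0.07 (SE 0.26, adjusted p = 0.886). A difference between the backgrounds in the Mafa change was not detectable with an error of this size. The islet label of the tissue held in every library, since 8 beta-cell marker genes together made up 250651 to 478791 TPM. Mice were numbered within a group in accession order. Read depth is unknown from TPM, and each library had between 14812 and 16133 genes at 1 TPM or more. The library of C57 WT mouse 5 stood apart from the others of its group in its balance of short against long transcripts, described with the ribosomal genes below.

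The genotype effect differed between backgrounds at 1233 of the 16756 genes (7.36%), 774 of them with a positive interaction (4.62%) and 459 with a negative one (2.74%). Het differed from WT at 6362 genes in C57 (38.0%), 4422 of them higher (26.4%) and 1940 lower (11.6%). In Mixed it differed at 7395 (44.1%), 5137 higher (30.7%) and 2258 lower (13.5%). The genotypes did not overlap at 21.0% of genes in C57 and 23.6% in Mixed. The median interaction over all genes tested was 0.02, with the 5th and 95th percentiles at -0.65 and 0.68, and the median SE was 0.17. Among the called genes the median size was 0.68, and 282 reached at least 1. Of the 1233 genes, 1084 were protein coding. By direction of the genotype effect, 668 of the called genes (54.2%) changed in Mixed alone by the same test, 257 (20.8%) in C57 alone and 215 (17.4%) in the same direction in both, 177 of these by more in Mixed. The remaining genes comprised 79 (6.41%) that changed in opposite directions and 14 that passed in neither background. The largest single class held 472 genes that rose in Mixed Het and did not pass in C57.

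**Figure D1:**
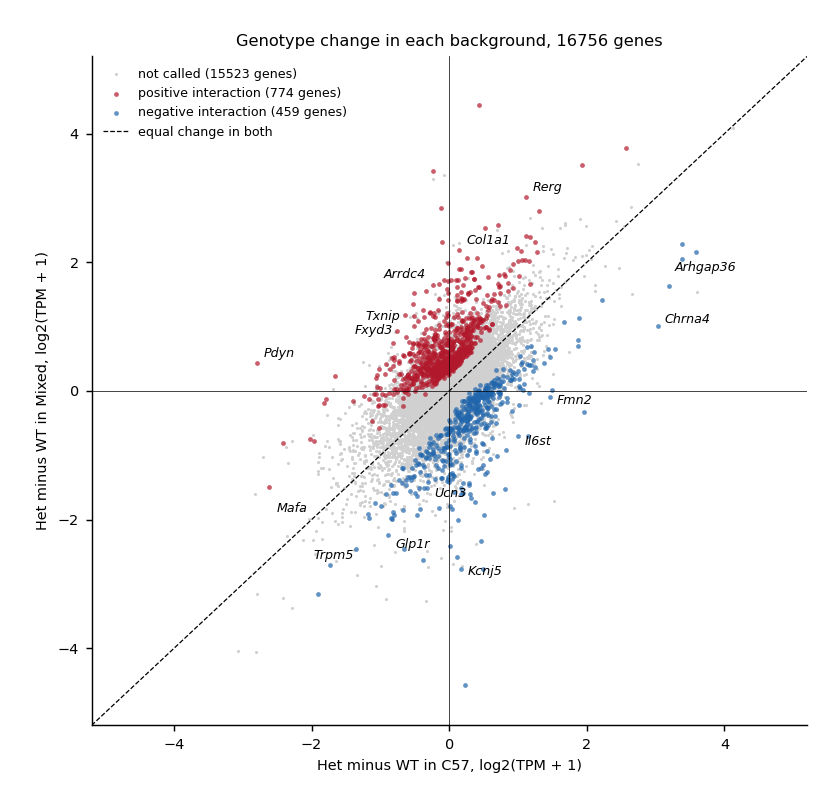
Het minus WT difference in C57 (x axis) and in Mixed (y axis), log2(TPM + 1), for the 16756 genes tested, with 774 positive interactions in red, 459 negative ones in blue and genes not called in grey. Vertical distance from the dashed line is the interaction, and Mafa lies near that line while Pdyn, Glp1r, Il6st, Chrna4 and Kcnj5 lie far from it.

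The same genes can be read from the other side, as background differences within each genotype. Of the 1233 called genes, 707 (57.3%) differed between Mixed and C57 in Het mice and not in WT mice. A further 342 (27.7%) differed between backgrounds in WT and not in Het. Another 73 (5.92%) differed in both genotypes, 56 of them in opposite directions, and 111 differed in neither. Over all genes tested, the backgrounds differed at 11.3% in WT, with Mixed higher at 6.30% and lower at 4.99%. In Het they differed at 20.5%, with Mixed higher at 13.3% and lower at 7.13%. The glucose transporter gene Slc2a2 is of the first kind, with a Mixed minus C57 difference of 0.10 in WT and -0.91 in Het. The thioredoxin inhibitor gene Txnip is of the second kind, with -1.30 in WT and 0.22 in Het, so that the WT mice of the 2 backgrounds stood apart and the Het mice did not pass. The incretin receptor gene Glp1r belongs to the group that crossed, higher in Mixed WT (0.58) and lower in Mixed Het (-0.77).

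The number of calls depended on the scaling, on single libraries and on cell-type covariates. With median-of-ratios scaling 1749 genes were called, 776 positive and 973 negative, so the excess of positive calls did not hold under that scaling, and 1103 of the calls were shared. Leaving out 1 library gave 771 calls (without Mixed Het 5) to 1775 (without C57 WT 2), and 659 genes were called in all 22 such fits, 412 positive and 247 negative. Without the 4 libraries of lowest quality weight (C57 WT 1, C57 WT 5, Mixed WT 4 and Mixed Het 1) 478 genes were called, of which 437 were among the 1233. Of 111 called genes chosen to be named, 61 were called without those libraries. Adding a macrophage and leukocyte marker score to the model left 2 calls, the provisional genes Gm19587 and Gm39317, which were singled out after their values were seen. In that fit 99% of the called genes kept the sign of their interaction, the estimates were 0.812 times and the errors 1.57 times those without the score, and 1436 genes had an unadjusted p under 0.05 against 4331. With a mesenchymal marker score 28 genes were called. The marker sums behind these scores are given with the immune and matrix genes below.

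**Figure D2:**
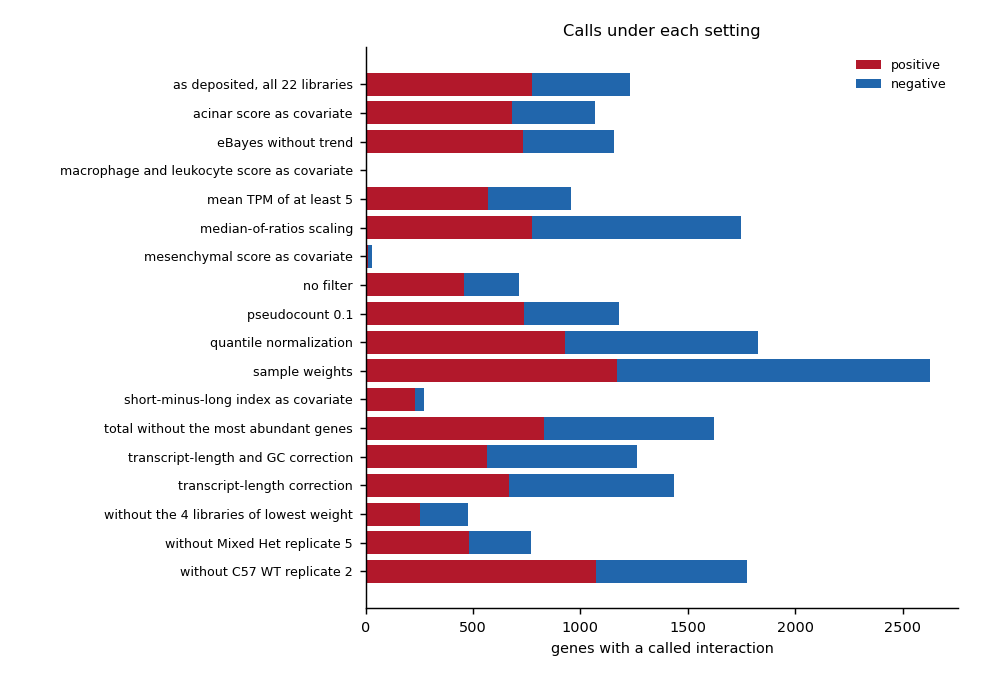
Number of genes with a called interaction (x axis) under each way of processing the table (y axis), positive in red and negative in blue. The count was 1233 with the deposited values and all 22 libraries, 2628 with sample weights, and 2 and 28 with the macrophage or mesenchymal score in the model.

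Several beta-cell receptor, transport and secretion genes fell in Mixed Het islets and fell by less, or did not pass, in C57 Het. Glp1r, the receptor for the incretin GLP-1, was 292, 355, 300, 321 and 203 TPM in C57 WT and 108 to 188 TPM (median 163) in C57 Het. Mixed WT mice had 366, 526, 411, 430 and 444 TPM, and in Mixed Het 80.2 to 109 TPM (median 90.6). Genotypes did not overlap on either background. Every Mixed WT mouse lay above every C57 WT mouse, and the Mixed Het mice lay at or under the lowest C57 Het values. Glp1r fell by 0.89 in C57 and by 2.24 in Mixed, an interaction of -1.35 (SE 0.19, adjusted p = 0.000512).

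Slc2a2 encodes GLUT2, the main glucose transporter of rodent beta cells. It was 307, 354, 351, 346 and 272 TPM in C57 WT and 313 to 368 TPM (median 352) in C57 Het. Mixed WT mice had 418, 339, 281, 332 and 388 TPM, and Mixed Het mice 156 to 277 TPM (median 174). The 2 genotypes overlapped in C57, while in Mixed every Het mouse was below every WT mouse, with mouse 4 at 277 TPM just under the lowest WT value. The interaction was -1.01 (SE 0.17, adjusted p = 0.0027).

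Ucn3 encodes urocortin 3, a peptide co-released with insulin that marks mature beta cells. It was 632, 826, 755, 692 and 649 TPM in C57 WT against 473 to 624.6 TPM (median 579) in C57 Het. Values in Mixed WT were 862, 791, 686, 572 and 865 TPM, against 179 to 412 TPM (median 264) in Mixed Het. Genotypes were separate on both backgrounds and the gap was wider in Mixed. The C57 difference of -0.32 did not pass (adjusted p = 0.0952), the Mixed difference was -1.50, and the interaction was -1.18 (SE 0.21, adjusted p = 0.00342).

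Trpm5, a calcium-activated cation channel of beta cells, was 70.5, 68.5, 74.2, 64.1 and 60.2 TPM in C57 WT and 22.04 to 35.6 TPM (median 24.5) in C57 Het. It was 36.5, 37.3, 65.6, 46.3 and 39.0 TPM in Mixed WT and 4.91 to 15.5 TPM (median 6.54) in Mixed Het. Genotypes were separate on both backgrounds, with 5 of the 6 Mixed Het mice under 10 TPM. The interaction was -1.10 (SE 0.28, adjusted p = 0.0224), and without the 4 libraries of lowest weight it was -1.001 with an adjusted p of 0.118.

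Other genes of glucose metabolism and secretion were called in the same direction. Pcx, pyruvate carboxylase, which feeds carbon into the citric acid cycle, had an interaction of -0.83 (SE 0.15, adjusted p = 0.00301), with -0.43 in C57 and -1.26 in Mixed. Slc30a8, the zinc transporter of the insulin granule, differed by 0.21 in C57, which did not pass, and by -0.57 in Mixed, an interaction of -0.79 (adjusted p = 0.0246). Sytl4, the granule protein granuphilin, had -0.76 (adjusted p = 0.00636), and the inhibitory galanin receptor Galr1 had -0.64 (adjusted p = 0.0145). The lipid receptors Gpr119 (0.91) and Ffar4 (0.89, called in 5 of the 22 fits with 1 library left out, adjusted p up to 0.0878) were called in the positive direction.

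Counted over the fixed lists, most genes of the beta-cell machinery were not called. The share called over all genes was 7.36%. Of 19 glucose-sensing and metabolism genes 1 was positive and 2 negative (15.8% called). Of 19 surface receptors 2 and 3 were (26.3%), and of 29 granule and exocytosis genes 1 and 2 (10.3%, near the share of all genes). Their median interactions were -0.05, -0.24 and -0.11 beside 0.02 over all genes. With the short-minus-long index in the model, described below, the medians were 0.14, 0.10 and 0.11. None of the 21 islet transcription factors tested was called by limma, 3 had an unadjusted p under 0.05, and the list's median was -0.14. Pdx1, a master regulator of the pancreas, had an interaction of -0.19 (SE 0.22), and Nkx6-1, which maintains beta-cell identity, -0.26 (SE 0.13). The incretin receptor gene Gipr and the fatty acid receptor gene Ffar1 fell on both backgrounds, with -1.55 and -1.90 for Gipr and -1.17 and -1.27 for Ffar1 in C57 and Mixed, and neither interaction passed. The insulin genes Ins1 (-0.13, SE 0.23) and Ins2 (-0.27, SE 0.29) and the potassium channel subunits Kcnj11 (0.03, SE 0.18) and Abcc8 (-0.20, SE 0.18) had interactions near their errors.

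**Figure D3:**
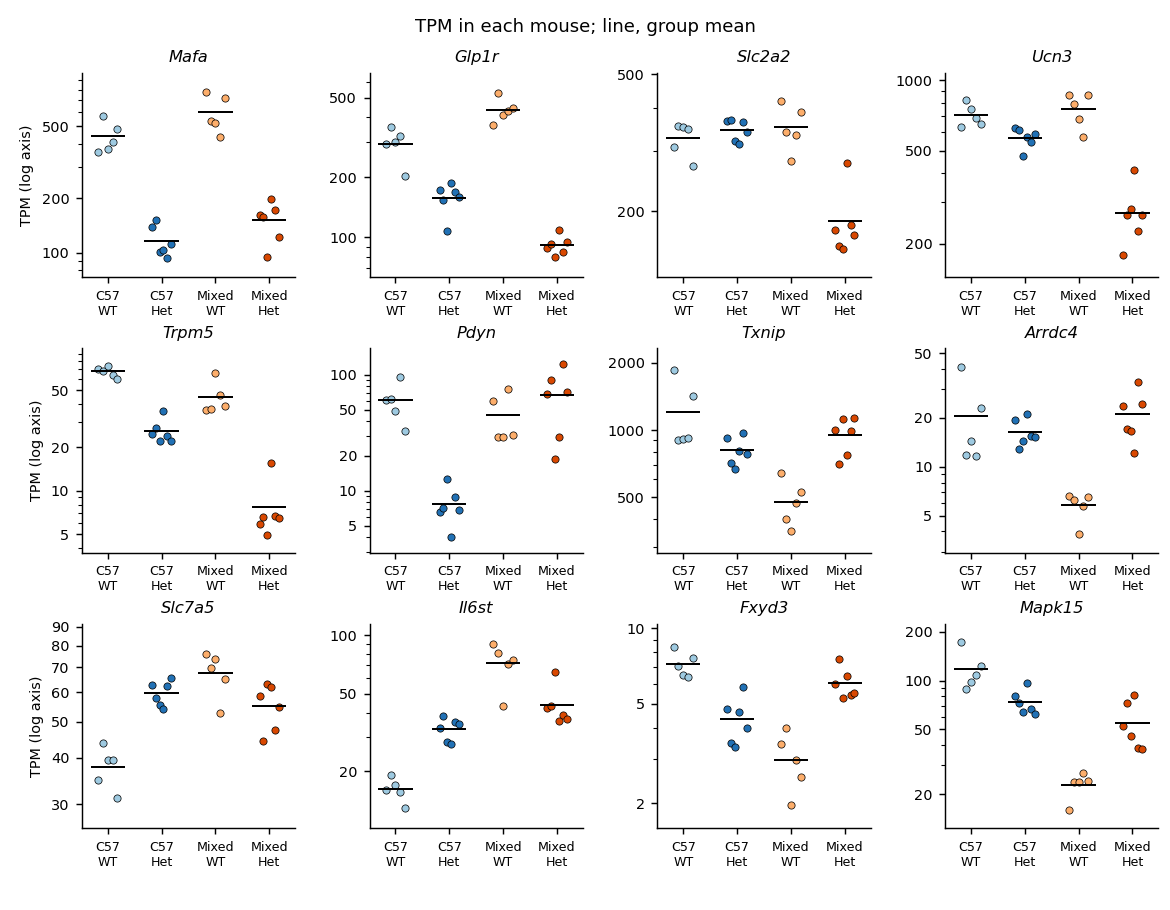
TPM of 12 genes in each of the 22 mice on log axes, by group (x axis), with the group mean as a line. Mafa is lower in Het on both backgrounds, Slc2a2 in Mixed Het alone, Pdyn in C57 Het alone, and Il6st, Fxyd3 and Mapk15 move in opposite directions.

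Pdyn, the precursor of the dynorphin opioid peptides, had the largest positive interaction of the genes named here. It was 61.2, 61.8, 48.8, 95.9 and 33.0 TPM in C57 WT and 4.02 to 12.6 TPM (median 6.99) in C57 Het. The Mixed WT mice measured 60.0, 29.3, 29.4, 75.3 and 30.5 TPM, and in Mixed Het 19.0 to 124 TPM (median 69.7). The C57 Het mice stood alone at a low level, and the other 3 groups overlapped. The interaction was 3.23 (SE 0.55, adjusted p = 0.00268), from -2.80 in C57 and 0.43 in Mixed, where the difference did not pass (adjusted p = 0.389). Over the 18 hormone and neuropeptide genes tested, 1 was positive (Pdyn) and 1 negative (Ucn3), with a list median of 0.39. The share called was 11.1%, near the 7.36% of all genes. Gcg, the glucagon gene, rose by 1.37 in C57 and 2.18 in Mixed, and its interaction of 0.81 (SE 0.37, adjusted p = 0.168) did not pass. Vip, a gut peptide of nerve and endocrine cells, had 2.15 with an SE of 1.04, which did not pass either.

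Among ion channels, 5 of 50 potassium channel genes (10%) and 2 of 17 calcium and TRP channel genes (11.8%) were called, shares near the 7.36% of all genes. Kcnj5, an inward rectifier opened by G proteins, was 0.0265 to 0.178 TPM in C57 WT and 0.184 to 0.292 TPM (median 0.222) in C57 Het, so it was close to 0 throughout C57. In Mixed WT it was 16.7, 14.6, 12.6, 6.78 and 18.2 TPM, and in Mixed Het 0.0653 to 9.34 TPM (median 0.352). The Mixed WT mice stood apart from every C57 mouse, and Mixed Het ran from the C57 level up to the 9.34 TPM of mouse 3, which lay within the Mixed WT range. The interaction was -2.94 (SE 0.57, adjusted p = 0.00559). The other called channels were Kcnk9 (1.24), Kcnk6 (0.80) and Kcnip4 (0.78), which rose in Mixed Het alone, Kcnmb1 (-0.67, called in 9 of the 22 fits, adjusted p up to 0.0708), Trpm5, and the T-type calcium channel gene Cacna1g (0.89).

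Txnip and Arrdc4 encode related arrestin-domain proteins that limit glucose uptake, and both are textbook targets of the glucose-responsive factor ChREBP (gene Mlxipl) through carbohydrate response elements. The 300 bases around their start sites are shown because Txnip carries the letters of such an element and Arrdc4 those of a single E-box, the kind of motif such elements are built from, as RefSeq gives them on GRCm38.p6, 250 bases before to 50 after the start. In Txnip (chr3:96557707-96558006, plus strand) the capitals mark the match to the element searched (CACGNG and CNCGNG with 5 bases between them), at -85 to -69. In Arrdc4 (chr7:68749189-68749488, minus strand) they mark the E-box CACGTG, at -193 to -188. Searched on both strands, the first motif occurs in 0.365% of the 32851 promoters of the RefSeq table and the E-box in 7.15%. A match is a description of the letters only.
Txnip: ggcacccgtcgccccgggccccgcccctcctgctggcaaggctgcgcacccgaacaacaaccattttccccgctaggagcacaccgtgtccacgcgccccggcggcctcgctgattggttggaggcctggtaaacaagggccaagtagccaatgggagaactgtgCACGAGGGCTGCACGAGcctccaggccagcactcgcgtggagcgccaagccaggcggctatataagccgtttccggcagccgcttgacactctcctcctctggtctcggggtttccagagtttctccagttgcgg
Arrdc4: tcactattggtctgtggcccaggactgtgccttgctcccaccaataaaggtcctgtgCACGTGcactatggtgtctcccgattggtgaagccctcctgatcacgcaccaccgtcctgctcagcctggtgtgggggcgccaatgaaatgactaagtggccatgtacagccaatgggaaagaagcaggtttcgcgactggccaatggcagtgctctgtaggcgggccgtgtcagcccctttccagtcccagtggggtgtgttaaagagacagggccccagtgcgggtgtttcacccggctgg

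Txnip was 1859, 901, 913, 924 and 1424 TPM in C57 WT and 671 to 965 TPM (median 796) in C57 Het. Mixed WT mice had 641, 400, 353, 469 and 525 TPM, and in Mixed Het 703 to 1127 TPM (median 994.5). Every Mixed Het mouse lay above every Mixed WT mouse, and the C57 genotypes overlapped. The gene fell by 0.52 in C57 (adjusted p = 0.0331) and rose by 1.002 in Mixed, an interaction of 1.52 (SE 0.26, adjusted p = 0.0029).

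Arrdc4 was 41.4, 11.8, 14.4, 11.6 and 23.1 TPM in C57 WT and 13.0 to 21.1 TPM (median 15.3) in C57 Het. It was 6.65, 6.25, 3.84, 5.73 and 6.49 TPM in Mixed WT and 12.2 to 33.1 TPM (median 20.3) in Mixed Het. As with Txnip, the Mixed WT mice formed the low group, while C57 WT mice 1 and 5 had the highest C57 values of both genes. The interaction was 1.81 (SE 0.37, adjusted p = 0.00716), and 1.27 (adjusted p = 0.0397) without the 4 libraries of lowest weight, which include those 2 mice.

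Of 18 genes on the ChREBP list, 4 were positive and 1 negative (27.8% against 7.36% of all genes), with a median of 0.11. The other 2 positive genes were Ppp1r3c, a glycogen-targeting subunit of protein phosphatase 1, at 1.33 (adjusted p = 0.0102), and the lipid droplet enzyme gene Pnpla3 at 0.85 (adjusted p = 0.0161). Both fell in C57 and did not pass in Mixed. Neither of their promoters matched the carbohydrate response element searched, and that of Ppp1r3c held 1 E-box. Acly, ATP citrate lyase, was negative at -0.58 (called in 11 of the 22 fits, adjusted p up to 0.064). Mlxipl itself fell on both backgrounds, by 1.85 in C57 and 2.30 in Mixed, and its interaction of -0.44 (SE 0.21, adjusted p = 0.193) did not pass. Those falls and the Txnip rise in Mixed Het thus went in different directions.

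Several amino acid stress genes rose in C57 Het islets and did not pass, or fell, in Mixed Het. The integrated stress response raises translation of ATF4, which then activates genes for amino acid synthesis, uptake and tRNA charging. Of 26 such genes tested, 19 rose and 0 fell in C57 Het, and 11 rose and 5 fell in Mixed Het. For the interaction 5 were negative and 0 positive (19.2%), 21 of the 26 estimates were below 0, and the list median was -0.33. The called genes were Slc7a5, Asns, Ddit3, Atf5 and Aars, and without the 4 libraries of lowest weight 2 of the 26 were called. With the short-minus-long index in the model, described with the ribosomal genes below, 1 was called and 3 had an unadjusted p under 0.05. The list median was then -0.07. After the length correction described there 6 were negative, with a median of -0.33.

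Slc7a5, the large neutral amino acid transporter LAT1, was 35, 43.9, 39.4, 39.6 and 31.2 TPM in C57 WT and 54.2 to 65.7 TPM (median 60.1) in C57 Het. Mixed WT mice already had 76.1, 69.6, 73.6, 52.8 and 65.1 TPM, against 44.5 to 63.3 TPM (median 56.6) in Mixed Het. C57 WT was the group that stood apart, below all other mice of the series. The gene rose by 0.65 in C57 and fell by 0.29 in Mixed (adjusted p = 0.03), an interaction of -0.94 (SE 0.15, adjusted p = 0.00133).

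Asns, asparagine synthetase, has a match to the ATF4 element core TGATGNAA (3.97% of promoters) just upstream of its start, at -23 to -16. Searched in the same way, the promoters of Ddit3 and Atf5 had no match and that of Aars had 2. The Asns promoter (chr6:7693160-7693459, minus strand, RefSeq, GRCm38.p6) is shown with its match in capitals.
Asns: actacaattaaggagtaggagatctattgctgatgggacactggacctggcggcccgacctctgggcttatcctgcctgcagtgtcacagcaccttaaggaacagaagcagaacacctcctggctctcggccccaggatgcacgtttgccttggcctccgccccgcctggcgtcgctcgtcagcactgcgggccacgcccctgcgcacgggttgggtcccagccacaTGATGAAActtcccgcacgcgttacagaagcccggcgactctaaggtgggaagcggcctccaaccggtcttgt

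Asns was 36.9, 48.7, 42.2, 46.9 and 35.3 TPM in C57 WT and 63.3 to 89.9 TPM (median 81.4) in C57 Het. The Mixed WT mice measured 70.4, 68.2, 78.0, 68.5 and 50.4 TPM, and in Mixed Het 58.6 to 99.7 TPM (median 79.4). Again the C57 WT mice were lowest, and the Mixed genotypes overlapped. The interaction was -0.72 (SE 0.19, adjusted p = 0.0248), and -0.57 with an adjusted p of 0.151 without the 4 libraries of lowest weight.

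Ddit3, which encodes the stress factor CHOP, showed another pattern. It was 118, 82.0, 52.99, 66.4 and 80.0 TPM in C57 WT and 39.1 to 114 TPM (median 80.9) in C57 Het. Mixed WT mice had 170, 236, 264, 141 and 92.8 TPM, and Mixed Het mice 51.6 to 94.2 TPM (median 58.8). Mixed WT was the high group, with mouse 5 inside the range of the others. The interaction of -1.36 (SE 0.38, adjusted p = 0.034) passed in 12 of the 22 fits, with an adjusted p of 0.0669 without Mixed WT 3.

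Atf5, a related transcription factor, rose by 0.68 in C57 and fell by 0.50 in Mixed, an interaction of -1.18 (SE 0.27, adjusted p = 0.0124). Aars, alanyl-tRNA synthetase, had -0.64 (called in 12 of the 22 fits, adjusted p up to 0.0633). Atf4 mRNA itself differed little, at -0.06 (SE 0.16), and Phgdh, the first enzyme of serine synthesis, rose on both backgrounds, by 2.12 in C57 and 1.65 in Mixed, with an interaction that did not pass. Among 24 chaperones and foldases of the endoplasmic reticulum 1 was called (4.17%). It was the oxidase gene Ero1a, at -0.70 (14 of the 22 fits, adjusted p up to 0.0634).

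Several sterol and clock genes fell in Mixed Het and fell by less, or did not pass, in C57 Het. Of 24 cholesterol synthesis and SREBP2 target genes, 5 were called, all negative (20.8%), and the median was -0.36. They included Srebf2 (-0.62), the master regulator of the pathway, Insig1 (-0.82, 19 of the 22 fits, adjusted p up to 0.0524), which retains the SREBP complex in the endoplasmic reticulum, and the sterol synthesis enzyme gene Msmo1 (-0.75, 10 of the 22 fits, up to 0.0781). In Mixed Het 8 of the 24 fell and 1 rose, and in C57 Het 1 fell and 2 rose. Without the 4 libraries of lowest weight 0 of the 24 were called by limma and 8 had an unadjusted p under 0.05. With the short-minus-long index 0 were called by limma, 2 had an unadjusted p under 0.05 and the median was -0.11. After the length correction 8 were negative, with a median of -0.28.

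Per2, a repressor of the circadian clock, was 25.5, 33.7, 21.1, 32.3 and 11.4 TPM in C57 WT and 19.95 to 29.1 TPM (median 22.2) in C57 Het. In Mixed WT it was 30.6, 57.2, 83.3, 108 and 28.1 TPM, and in Mixed Het 17.8 to 22.5 TPM (median 19.9). The Mixed WT mice spread widely, and every one of them exceeded every Mixed Het mouse. The interaction of -1.35 (SE 0.39, adjusted p = 0.041) passed in 8 of the 22 fits, with 0.0786 without Mixed WT 3. Of 19 clock genes 3 were called (15.8% against 7.36% of all genes), all negative, and the list median was -0.43. Nr1d2 had -1.08 and Clock -0.52 (7 of the 22 fits, adjusted p up to 0.0789). Nr1d2 fell by 0.88 in Mixed alone, whereas Clock did not fall but rose by 0.52 in C57 alone. Of the 19, 0 were called by limma without the 4 libraries of lowest weight, and 5 had an unadjusted p under 0.05. With the short-minus-long index 0 were called by limma, 2 had an unadjusted p under 0.05 and the list median was -0.05. After the length correction 3 were negative, with a median of -0.34. Per1 had -1.03 (SE 0.45), which did not pass. The hour of islet isolation is not given in the labels, and its part in these values was not tested.

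Genes called in opposite directions on the 2 backgrounds numbered 79, with 47 lower in C57 Het and higher in Mixed Het, and 32 the reverse. Il6st encodes gp130, the signalling subunit shared by the receptors of the interleukin-6 family. It was 16.01, 19.0, 16.96, 15.6 and 12.9 TPM in C57 WT and 27.5 to 38.6 TPM (median 34.1) in C57 Het. Mixed WT mice had 90.3, 81.5, 43.2, 71.0 and 74.4 TPM, and Mixed Het mice 36.3 to 64.6 TPM (median 40.7). The C57 genotypes were separate, and in Mixed the 2 genotypes overlapped through WT mouse 3 and Het mouse 3. The gene rose by 0.996 in C57 and fell by 0.69 in Mixed, an interaction of -1.69 (SE 0.23, adjusted p = 0.000368).

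Fxyd3, a regulator of the sodium pump, went the other way. It was 8.399, 7.05, 6.47, 6.36 and 7.63 TPM in C57 WT and 3.36 to 5.83 TPM (median 4.33) in C57 Het. It was 3.45, 3.99, 1.97, 2.98 and 2.54 TPM in Mixed WT and 5.25 to 7.52 TPM (median 5.75) in Mixed Het. Genotypes were separate on both backgrounds, in opposite orders. The interaction was 1.46 (SE 0.19, adjusted p = 0.000327). Its relative Fxyd6 fell by 0.80 in C57 alone and had 0.97 (SE 0.14, adjusted p = 0.000667). Tifa, an adaptor of NF-kappa-B signalling, rose by 0.83 in C57 and fell by 0.92 in Mixed, an interaction of -1.74 (SE 0.31, adjusted p = 0.00319).

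Mapk15, an atypical MAP kinase, lies on chromosome 15 near Mafa, the 11th tested gene from it in the order of GENCODE M21. It was 172, 88.7, 97.9, 108 and 123 TPM in C57 WT and 62.6 to 96.98 TPM (median 69.5) in C57 Het. Mixed WT mice had 15.98, 23.6, 23.7, 27.1 and 24.0 TPM, and in Mixed Het 37.7 to 81.9 TPM (median 49.0). Mixed WT was far below the other groups, and the Mixed genotypes were separate. The gene fell by 0.65 in C57 and rose by 1.18 in Mixed, an interaction of 1.83 (SE 0.28, adjusted p = 0.000879).

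The changed allele and its neighbours on the chromosome travel together in a cross, so the 20 tested genes on each side of Mafa were counted. Of these 40, 5 were called (12.5% against 7.36% over all genes), all positive. Beside Mapk15 these were Ly6e (0.75, SE 0.15, adjusted p = 0.00557), Top1mt (0.64, 12 of the 22 fits, adjusted p up to 0.0668), Eef1d (0.31, 15 of the 22 fits, up to 0.0585) and Pycrl (0.45, 7 of the 22 fits, up to 0.0831). Zc3h3, the gene next to Mafa, fell on both backgrounds, by 1.37 in C57 and 1.88 in Mixed, and its interaction of -0.51 (SE 0.18, adjusted p = 0.0815) did not pass. Across the autosomes and X the share called ran from 4.44% on chromosome 18 to 9.05% on chromosome 7.

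Alpha-cell markers rose on both backgrounds, and 4 of the 8 by more in Mixed. The median changes were 1.002 in C57 and 2.005 in Mixed. The 4 called interactions (50.0% against 7.36% of all genes) were all positive, with a list median of 0.85. Of the 8, 2 were called without the 4 libraries of lowest weight. Irx1, an alpha-cell transcription factor, was 49.8, 26.7, 20.5, 12.9 and 21.3 TPM in C57 WT and 39.6 to 60.9 TPM (median 46.05) in C57 Het. It was 12.4, 13.0, 8.19, 9.23 and 12.7 TPM in Mixed WT and 44.5 to 66.2 TPM (median 55.8) in Mixed Het. The 2 Het groups overlapped, and Mixed WT lay at or below the lower end of C57 WT. The interaction was 1.24 (SE 0.31, adjusted p = 0.0211), and 0.83 with an adjusted p of 0.0953 without the 4 libraries of lowest weight.

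The other called alpha markers were Irx2 (1.06, 14 of the 22 fits, adjusted p up to 0.0713), the transthyretin gene Ttr (0.93, 10 of the 22 fits, up to 0.0717) and the vitamin D binding protein gene Gc (0.88). The summed TPM of the 8 genes was 20018 to 58589 in C57 WT, 73187 to 119223 in C57 Het, 16870 to 28704 in Mixed WT and 67049 to 109403 in Mixed Het. In this sum, most of which is Gcg, the 2 Het groups covered a like range and the 2 WT groups differed more. Irx1, Irx2 and Ttr likewise differed between backgrounds in WT (Mixed minus C57 -1.06, -1.09 and -1.18) and did not pass in Het. Gc was the reverse, with -0.30 in WT, which did not pass, and 0.59 in Het (adjusted p = 0.01). Of 7 delta and PP markers 1 was called (14.3%), the retinol carrier gene Rbp4 at 0.998 (21 of the 22 fits), and the list median was 0.49. The summed delta and PP markers were 24136 to 34556 TPM in C57 WT, 30068 to 51683 in C57 Het, 21892 to 48598 in Mixed WT and 47103 to 90574 in Mixed Het. Of 8 beta-cell markers 2 were called, Slc2a2 and Ucn3, both negative.

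Progenitor and dedifferentiation genes had 3 positive calls and 0 negative among 15 tested, with a median of 0.64, and 1 was called without the 4 libraries of lowest weight. Aldh1a3, an aldehyde dehydrogenase that marks failing beta cells, was 0.387, 0.463, 0.323, 0.651 and 0.671 TPM in C57 WT and 0.240 to 0.689 TPM (median 0.509) in C57 Het. It was 1.61, 0.559, 0.303, 0.701 and 1.04 TPM in Mixed WT and 0.412 to 16.1 TPM (median 7.06) in Mixed Het. The high values occurred among Mixed Het mice alone, and that group also reached down into the range of the others. The interaction of 2.0 (SE 0.58, adjusted p = 0.0407) passed in 7 of the 22 fits, with 0.073 without Mixed WT 3. The other called genes were Sox4 (1.34, adjusted p = 0.0214), a factor of endocrine development, and Serpina7 (1.20, adjusted p = 0.00722). Neurog3, the switch gene of endocrine progenitors, rose by 0.59 in C57 and 1.42 in Mixed, and its interaction of 0.83 (adjusted p = 0.0655) did not pass. Of 17 genes normally kept low in mature beta cells, 0 were called by limma, 10 had an unadjusted p under 0.05 and the median was 0.43.

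Several immune and matrix genes rose in Mixed Het and fell or did not pass in C57 Het. C1qa encodes a chain of complement C1q, which islet macrophages make. It was 194, 172, 172, 153 and 200 TPM in C57 WT and 83.8 to 133 TPM (median 98.9) in C57 Het. Values in Mixed WT were 83.7, 62.8, 80.2, 84.5 and 88.2 TPM, and in Mixed Het 87.2 to 208 TPM (median 100.1). C57 WT stood above C57 Het without overlap, while the Mixed genotypes overlapped by a small margin, at 87.2 and 88.2 TPM, and mouse 5 of Mixed Het was far above its group. The gene fell by 0.80 in C57 and rose by 0.49 in Mixed, an interaction of 1.28 (SE 0.23, adjusted p = 0.00362).

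Of 16 macrophage and leukocyte markers tested of 20 listed, 10 were positive and 0 negative (62.5%), and the median was 0.81. Of these 16, 0 rose and 5 fell in C57 Het, and 10 rose and 1 fell in Mixed Het. C1qb (1.23), the lysosomal protein gene Cd68 (1.18) and Itgax (1.096, 17 of the 22 fits, adjusted p up to 0.0616) had the next largest values. Of the 16, 5 were called without the 4 libraries of lowest weight, and with the short-minus-long index 0 were called by limma and 10 had an unadjusted p under 0.05. The summed markers were 294 to 356 TPM in C57 WT, 182 to 258 in C57 Het, 164 to 232 in Mixed WT and 251 to 507 in Mixed Het, and Itgam never exceeded 0.152 TPM and was at 0 in 3 libraries. Among 18 MHC and antigen presentation genes 5 were positive and 0 negative (27.8%), with a median of 0.55, and without the 4 libraries 2 were called. They included the class II genes H2-Ab1 (1.151) and H2-Aa (0.84), their chaperone gene Cd74 (0.86, 14 of the 22 fits, adjusted p up to 0.0651) and the immunoproteasome gene Psmb10 (0.81). With the macrophage score in the model the interactions of H2-Ab1, Cd74, H2-Aa and Itgax became -0.235, -0.173, -0.12 and -0.319, and the part of macrophage number in the result was not tested otherwise.

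Of 24 interferon-stimulated genes 3 were positive and 0 negative (12.5% against 7.36% of all genes), and the list median was 0.28. The 3 were the antiviral genes Bst2 (0.87) and Ifitm3 (1.18, 6 of the 22 fits, adjusted p up to 0.0796) and Ifi27 (0.66). Of 18 chemokines and receptors 1 was called (5.56%), the eotaxin gene Ccl11 at 1.90 (adjusted p = 0.0229). Its Mixed Het mean was 6.43 ± 6.87 TPM (SD, n = 6). Of 12 lymphocyte markers 2 were tested, 0 were called by limma and 1 had an unadjusted p under 0.05. The T-cell markers Cd3e, Cd3d, Cd3g and Cd8a never exceeded 0.175 TPM, while the B-cell receptor component Cd79a reached 13.8 TPM. The summed lymphocyte markers were 9.66 to 15.9 TPM in C57 WT, 4.26 to 6.76 in C57 Het, 5.14 to 12.6 in Mixed WT and 3.21 to 5.63 in Mixed Het.

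Col1a1, the main chain of type I collagen, was 9.02, 6.82, 4.81, 8.001 and 19.9 TPM in C57 WT and 6.76 to 13.7 TPM (median 10.7) in C57 Het. It was 3.02, 9.83, 8.04, 10.2 and 8.08 TPM in Mixed WT and 15.2 to 94.8 TPM (median 35.8) in Mixed Het. Every Mixed Het mouse was above every Mixed WT mouse, and the C57 genotypes overlapped. The interaction was 2.04 (SE 0.53, adjusted p = 0.0246). Without the 4 libraries of lowest weight it was 1.64 with an adjusted p of 0.122.

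Of 42 collagen and matrix genes tested, 15 were positive and 1 negative (38.1%), with a median of 0.86. In Mixed Het 26 rose and 3 fell, and in C57 Het 4 rose and 4 fell. Col5a3 (1.88), Col6a2 (1.73, 20 of the 22 fits, adjusted p up to 0.0536) and Col6a1 (1.63, 18 of the 22 fits, up to 0.0613) followed Col1a1 in size. Col6a6 alone was negative, at -0.81 (9 of the 22 fits, up to 0.078), and fell on both backgrounds. Of 12 mesenchymal markers tested, 5 were positive and 0 negative (41.7%), with a median of 1.23. They included the collagen genes Col1a1, Col1a2 (20 of the 22 fits, adjusted p up to 0.0565) and Col3a1 (6 of the 22 fits, up to 0.0934). The marker result is thus partly the collagen result. Tagln (1.27, 9 of the 22 fits, up to 0.0738) differed from these, as it fell by 1.06 in C57 and did not pass in Mixed (0.20). The summed 13 markers were 159 to 350 TPM in C57 WT, 137 to 183 in C57 Het, 153 to 226 in Mixed WT and 146 to 601 in Mixed Het, and their part in the matrix result was not tested. Without the 4 libraries of lowest weight 0 of the matrix genes were positive by limma, 1 was negative, and 20 had an unadjusted p under 0.05. With the mesenchymal score, which those collagen genes help make up, 0 were called, 4 had an unadjusted p under 0.05 and the list median was -0.01. Of 22 secreted senescence proteins 6 were positive and 0 negative (27.3%). Among them were the matrix proteases Mmp2 (1.54, 3 of the 22 fits, adjusted p up to 0.0871) and Mmp14 (0.88, 16 of the 22 fits, up to 0.0559). The protease inhibitor gene Timp1 (1.18) and the urokinase receptor gene Plaur (1.06) were others. Of these 22 genes 0 were called by limma without the 4 libraries, and 7 had an unadjusted p under 0.05. Of 23 p53 and cell cycle arrest genes 1 was called (4.35%), Phlda3 at 0.98.

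The other lists held few calls. Of 30 cell cycle and replication genes 1 was called (3.33%), the replicative helicase gene Mcm4 at -1.09 (16 of the 22 fits, adjusted p up to 0.0617). Of 17 immediate early genes 1 was (5.88%), Egr2 at 1.01 (adjusted p = 0.0248). Schwann and neural markers had 1 of 7 called, Sox10 at 1.06 (8 of the 22 fits, adjusted p up to 0.0888), with a median of 0.85, and ductal markers 1 of 10, Krt7 at 0.34 (6 of the 22 fits, adjusted p up to 0.0865). None of 11 endothelial markers was called by limma, 4 had an unadjusted p under 0.05, and the median was 0.43. None of 15 acinar markers was called by limma or had an unadjusted p under 0.05. Their summed level was 354 to 594 TPM in C57 WT, 435 to 2555 in C57 Het, 258 to 1232 in Mixed WT and 993 to 1733 in Mixed Het, so exocrine RNA varied widely among mice of 1 group.

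**Figure D4:**
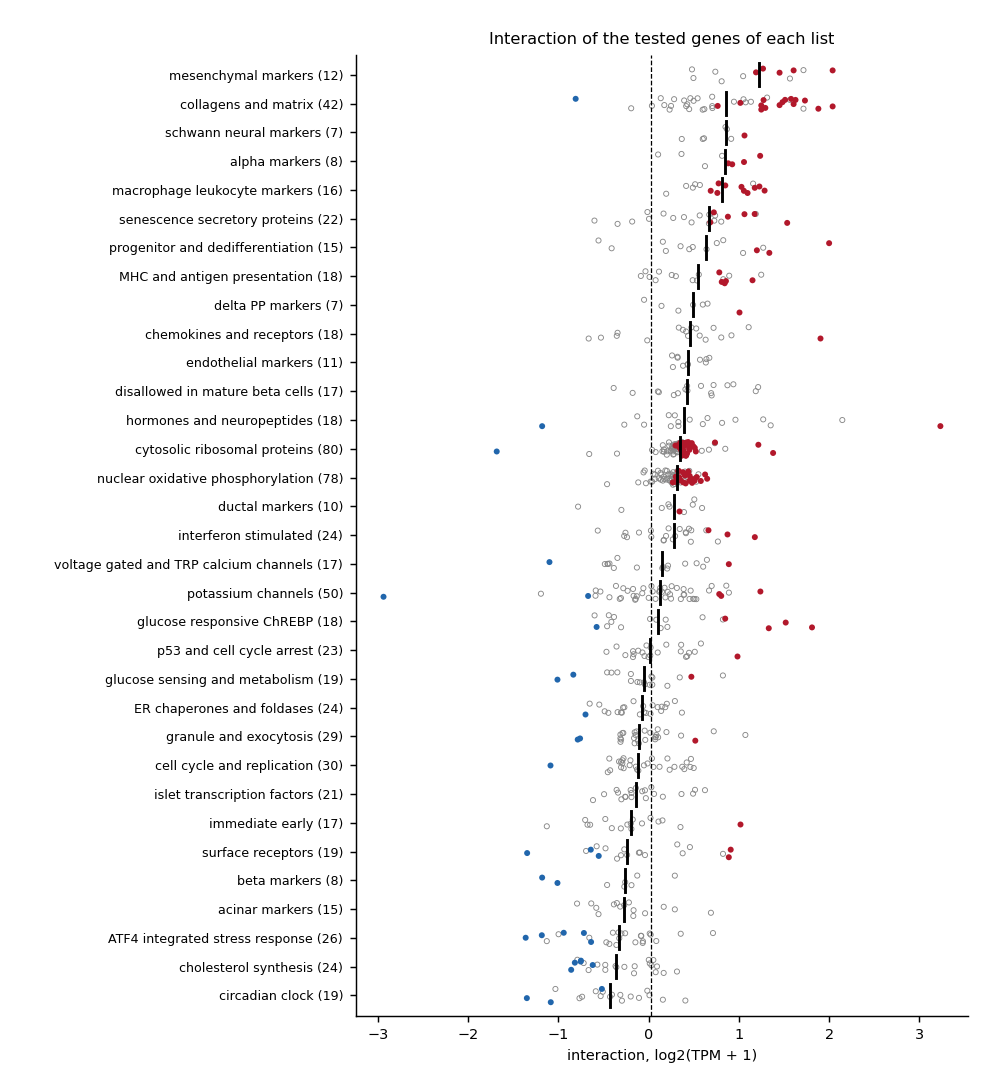
Interaction of each tested gene, log2(TPM + 1) (x axis), for the lists with at least 7 tested genes (y axis, number tested in brackets), filled where called, with the list median as a bar and the median of all genes, 0.02, as a dashed line. The mesenchymal, matrix, Schwann, alpha and macrophage lists lie farthest to the right and the clock, cholesterol and ATF4 lists farthest to the left.

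Genes of the cytosolic ribosome and of oxidative phosphorylation, the mitochondrial pathway that makes most ATP, had many small positive interactions. Of 80 ribosomal protein genes 34 were positive and 1 negative (43.8% against 7.36% of all genes), 77 estimates were above 0 and the median was 0.35. Of 78 nuclear oxidative phosphorylation genes 25 were positive and 0 negative (32.1%), 73 estimates were above 0 and the median was 0.31. In Mixed Het 71 ribosomal and 63 oxidative phosphorylation genes rose, against 34 and 22 in C57 Het. Ndufa1, a complex I subunit, had 0.65 (SE 0.14, adjusted p = 0.0108), and Rps4l 0.74 (SE 0.10, adjusted p = 0.000512).

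These are short transcripts, with median lengths of 1054 and 1003 bases, and the interaction fell with transcript length over all genes. Across 5 equal classes of the 13103 protein-coding genes with a length, from a median of 1378 to one of 6780 bases, the median interaction ran 0.21, 0.07, 0.01, -0.06 and -0.16. The share called positive was 13.2% in the shortest class and 1.68% in the longest, and the share called negative 0.839% and 5.04%. An index of each library, the median log2 deviation of the shortest class minus that of the longest, was -0.042 to 0.41 in C57 WT, -0.214 to 0.00703 in C57 Het, -0.129 to 0.0851 in Mixed WT and -0.159 to 0.228 in Mixed Het. The highest value, 0.41, was that of C57 WT 5. After a correction for length within each library, 9 ribosomal genes were positive and 1 negative, and 5 oxidative phosphorylation genes were positive and 0 negative. Their medians were then 0.21 and 0.17. With the index as a covariate 5 ribosomal genes were positive and 1 negative, and 0 oxidative phosphorylation genes were called by limma while 16 had an unadjusted p under 0.05. With median-of-ratios scaling 14 ribosomal genes were positive and 1 negative, and 12 oxidative phosphorylation genes were positive. Over all genes the correction for length gave 1434 calls, 668 positive and 766 negative, of which 897 were shared with the uncorrected fit.

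**Figure D5:**
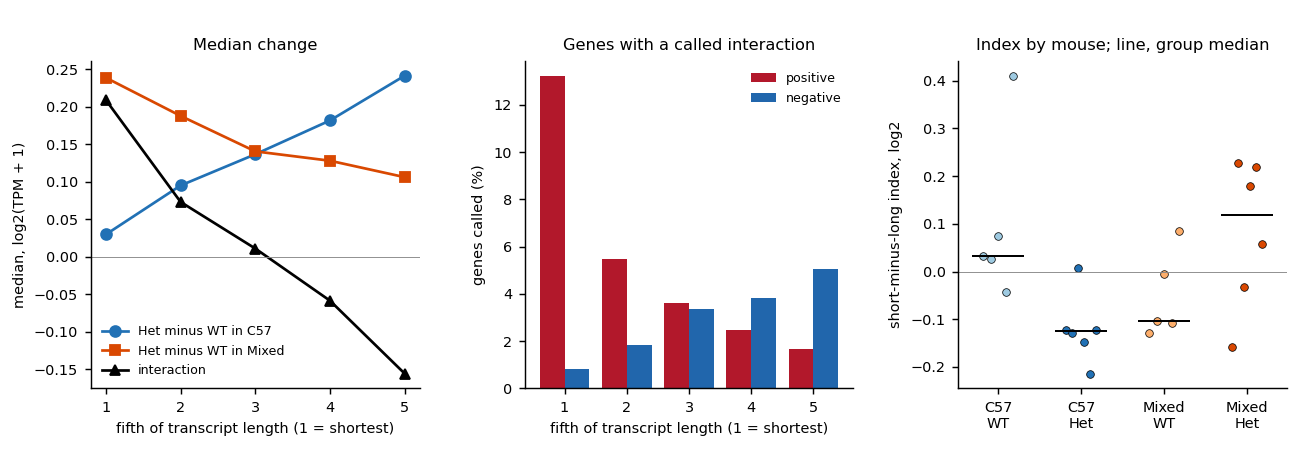
Left, median genotype change and interaction, log2(TPM + 1), by class of transcript length, shortest to longest. Middle, percent of genes called in each class, from 13.2% positive in the shortest to 1.68% in the longest. Right, short-minus-long index of each mouse with the group median as a line, where C57 WT 5 stands at 0.41.

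Among the ribosomal genes, Rpl30, Rpl26 and Rpl29 had interactions above 1 in size. Rpl30 was 144, 141, 151, 131 and 143 TPM in C57 WT and 147 to 177 TPM (median 162.5) in C57 Het. It was 58.1, 61.2, 103, 54.9 and 54.9 TPM in Mixed WT and 133 to 202 TPM (median 188) in Mixed Het. Mixed WT was low and separate from all other mice, with mouse 3 the highest of its group. The interaction was 1.22 (SE 0.19, adjusted p = 0.0012).

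Rpl26 was 275, 254, 278, 237 and 272 TPM in C57 WT and 273 to 328 TPM (median 292) in C57 Het. The Mixed WT mice measured 239, 240, 146, 130.1 and 244 TPM, and in Mixed Het 48.8 to 169 TPM (median 56.9). Mixed WT fell into 2 levels, and 5 of the 6 Mixed Het mice were under 60 TPM with mouse 3 at 169 TPM. The interaction was -1.68 (SE 0.32, adjusted p = 0.00512). Rpl29 had 1.38 (5 of the 22 fits, adjusted p up to 0.0761), with a Mixed WT mean of 124 ± 66.1 TPM (SD, n = 5). Ribosomal genes have many near-identical processed copies in the genome, so how their reads were divided can affect these values.

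MicroRNA genes were among the largest negative interactions. MicroRNAs are short RNAs that pair through their seed, bases 2 to 8, with target messages. Mir344f and Mir344i lie in a cluster on chromosome 7, and their mature sequences from RefSeq (GRCm38.p6, minus strand) are shown with the seed in capitals because the called genes of the family carry different seeds.
mmu-miR-344f-3p: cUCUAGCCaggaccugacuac
mmu-miR-344f-5p: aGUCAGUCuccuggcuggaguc
mmu-miR-344i: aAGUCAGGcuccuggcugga
They map to chr7:62046183-62046203, chr7:62046225-62046246 and chr7:62085281-62085300, and each seed occurs in 1 mature miRNA of the table. Libraries were made from polyadenylated RNA, so a value over such a gene reflects longer transcripts across the hairpin and not the mature miRNA. The deposited table holds 13 Mir344 genes, of which 6 were tested and 2 were called.

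Mir344i was 22.1, 21.5, 20.2, 30.9 and 17.3 TPM in C57 WT and 8.51 to 25.9 TPM (median 20.02) in C57 Het. It was 51.5, 38.6, 43.3, 48.1 and 48.6 TPM in Mixed WT and 4.58 to 8.85 TPM (median 6.77) in Mixed Het. Mixed WT was above every C57 mouse, and Mixed Het was below every C57 mouse but 1. The interaction was -2.24 (SE 0.32, adjusted p = 0.000512). Mir344f, at lower levels, was 1.503, 0.617, 0.609, 0.702 and 0.723 TPM in C57 WT and 0 to 5.01 TPM (median 1.82) in C57 Het. It was 5.84, 7.96, 5.72, 11.9 and 5.19 TPM in Mixed WT and 0 to 0.636 TPM in Mixed Het, where 4 of 6 mice were listed at 0. Mir344f is only 68 bases long, so few reads may lie behind these values, and TPM does not give their number. Its interaction was -3.26 (SE 0.45, adjusted p = 0.0005). Mir1957a on chromosome 4 had -2.80 (SE 0.54, adjusted p = 0.00541), also from a high Mixed WT mean of 9.88 ± 5.02 TPM (SD, n = 5).

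Several genes with large interactions belong to none of the lists. Chrna4, a nicotinic acetylcholine receptor subunit, rose by 3.03 in C57 and 1.004 in Mixed, an interaction of -2.03 (SE 0.33, adjusted p = 0.0017). Arhgap36 on the X chromosome rose by 3.58 and 2.16 (-1.42, 21 of the 22 fits), from a Mixed WT mean of 35.1 ± 18.5 TPM against 6.36 ± 1.32 TPM in C57 WT (SD, n = 5 each). Fmn2, an actin nucleator, was 22.01, 30.6, 27.8, 24.9 and 18.1 TPM in C57 WT and 65.1 to 71.1 TPM (median 68.7) in C57 Het. In Mixed WT it was 23.2, 40.8, 30.1, 27.7 and 25.2 TPM, and in Mixed Het 15.3 to 43.5 TPM (median 28.2). C57 Het stood alone at a high and narrow level. The interaction was -1.56 (SE 0.27, adjusted p = 0.00269).

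Rerg, a Ras-related growth inhibitor, rose on both backgrounds and by more in Mixed, with 1.11 and 3.01 (interaction 1.90, SE 0.33, adjusted p = 0.00268). Wdr72 had 0.71 and 2.58 (1.87, adjusted p = 0.00573), from WT means under 0.05 TPM on both backgrounds. Dapl1 rose in Mixed alone (2.02, SE 0.52, adjusted p = 0.0247). Cd44, the hyaluronan receptor, was 8.62, 10.2, 8.54, 9.81 and 9.85 TPM in C57 WT and 6.91 to 8.61 TPM (median 7.85) in C57 Het. It was 5.11, 4.99, 4.39, 4.35 and 3.86 TPM in Mixed WT and 7.67 to 16.6 TPM (median 12.2) in Mixed Het. The Mixed genotypes were separate. Mixed was below C57 in WT (-0.91) and above it in Het (0.49), and both differences passed. Its interaction was 1.41 (SE 0.20, adjusted p = 0.000512).

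Rad51ap2 was 5.41, 4.85, 4.81, 4.54 and 4.68 TPM in C57 WT and 3.23 to 4.29 TPM (median 3.34) in C57 Het. It was 8.92, 8.33, 6.13, 7.90 and 10.5 TPM in Mixed WT and 1.64 to 2.75 TPM (median 2.35) in Mixed Het. The 4 groups did not overlap and ran from Mixed WT down to Mixed Het with the C57 groups between. The interaction was -1.14 (SE 0.15, adjusted p = 0.000368). Tdrd6, Mreg, Ttc28, Ceacam10 and Gdap2 were also called negative (-2.29, -1.64, -1.40, -1.56 with 17 of the 22 fits, and -0.93), and Slc28a2b and Tmsb10 positive (1.89 and 1.01). Tdrd6 was at 0.101 ± 0.0445 TPM in C57 WT (SD, n = 5), below the other 3 groups, whose means were 3.33 to 5.99 TPM.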

How the data were processed

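Polyadenylated islet RNA was made into NEBNext Ultra II libraries and read as pairs of 150 bases on an Illumina NovaSeq, per the labels' protocols. The submitters' processing notes name STAR 2.7.10b, MultiQC 1.7 and mm39. Their order and the counting step are not given in the sources used here. The deposited values are TPM, which the authors scaled to a like total in each library and which keep no read depth, so precision comes from the spread between mice. The table's 0 other value columns needed no exclusion.

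Genes with at least 1 TPM in at least 5 of the 22 libraries were tested on the log2(TPM + 1) scale, where fold changes of weakly expressed genes come out too small. One mean per group was fitted with limma 3.58.1 (R 4.3.3; empirical Bayes with trend), and the interaction, the genotype effect within each background and the background difference within each genotype were contrasts of those means. P-values were adjusted over all 16756 genes at 0.05. The code was tested on simulated data. Pairs of libraries were not treated as matched.

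The genes and the 24 pathway and 10 marker lists were chosen with earlier results of these data known. Genes named are Mafa, the 10 largest interactions each way and the 5 smallest p-values each way among called genes with a group mean of at least 5 TPM and separate genotypes on at least 1 background (provisional genes, microRNAs and pseudogenes left out), the 5 largest opposite-direction genes, up to 4 called members per list and called microRNAs among the 10 largest. The others, including the neighbours of Mafa, and genes that did not pass, were chosen after their values were seen. Some genes the rule selects are not reported here. Where a symbol occurs more than once (147 symbols), the row with the highest mean was used. Transcript length came from GENCODE M21 (GRCm38) by gene identifier for 96.0% of genes tested. Sequences are from RefSeq GRCm38.p6. Neither is the authors' build, and no coordinate was converted. Alternatives covered scaling, pseudocount, filters, sample weights, marker scores as covariates and leaving out each library. The length corrections, the length index and the fit without 4 libraries were added after seeing the data.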

Additional observations from a re-analysis of the deposited data

Results flagged for a closer look

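The test of the difference between the backgrounds passed at 1233 genes, which are the subject of the report. In the 27 genes given by sample, each of the 4 groups was checked for a mouse whose gap to its nearest neighbour was a large share of the group's range (Dixon's test at the 95% level). Of 108 groups, 9 held such a mouse, and chance gives about 1 in 20.

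Most of these were in Mixed Het. Mouse 3 of that group was far above the others in Il6st (64.6 TPM), Kcnj5 (9.34 TPM) and Rpl26 (169 TPM). Mouse 4 was far above them in Slc2a2 (277 TPM) and Trpm5 (15.5 TPM), and mouse 5 in C1qa (208 TPM). In C57 WT, mouse 5 stood apart in Col1a1 (19.9 TPM) and mouse 1 in Mir344f (1.5 TPM). In Mixed WT, mouse 3 stood apart in Rpl30 (103 TPM). Each of these 9 interactions stayed called when that mouse was left out.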

How the results depend on the processing

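No paired analysis was possible because the labels give no replicate numbers. The interaction count of 1233 moved to 2 with the macrophage and leukocyte score, 28 with the mesenchymal score, 271 with the short-minus-long index, 478 without the 4 libraries of lowest weight, 714 with no filter on low values, 2628 with sample weights, 245 at an adjusted p under 0.01 and 282 with a size of at least 1. With 1 library left out it ranged from 771 to 1775. Genotype calls in C57 (6362) became 3679 with the acinar score, 3572 with the macrophage score, 4174 with the index, 4222 without the 4 libraries, 4002 at 0.01 and 550 with a size of at least 1, and ranged from 5131 to 6814 with 1 library left out. Genotype calls in Mixed (7395) became 1025 with a size of at least 1, and ranged from 6247 to 7895. Of 656 genes on the pathway lists, 136 had a called interaction and 317 an unadjusted p under 0.05. That count became 0 with the macrophage score (94 at an unadjusted p under 0.05), 3 with the mesenchymal score, 65 with no filter, 222 with sample weights, 23 with the index, 83 with the length and GC correction and 55 without the 4 libraries, and ranged from 86 to 182.

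Of 111 called genes chosen to be named, 75 were called in every fit with 1 library left out. With the macrophage score the interaction changed sign at H2-Ab1 (-0.235), Cd74 (-0.173), H2-Aa (-0.12) and Itgax (-0.319), and the Mixed difference at H2-Ab1 (-0.052), H2-Aa (-0.096) and C1qa (-0.144). With the mesenchymal score the interaction of Col3a1 became -0.014. These scores hold some of the same genes (C1qa, Itgax and Col3a1 among them), and beyond that the cause of these moves was not tested. Without the 4 libraries, 50 of the 111 were not called, among them Trpm5, Ddit3, Asns, Aars, Srebf2, Insig1, Per2, Nr1d2, Aldh1a3, Sox4, Ppp1r3c, Irx1, Irx2, Rbp4, Cd68, Col1a1, Col5a3, Ccl11, Dapl1 and Mir1957a. Read depth is unknown, so no limit of detection can be given.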
